A study of Mus musculus with 6 samples.

Results

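The 10 genes described here were Myocd, Srf, Mef2a, Mef2c, Mef2d, Nfatc4, Ebf1, Ebf2, Nkx2-3 and Rbpms2, a set of factors known from the control of smooth muscle and mural cell genes. They were picked by gene symbol from a table of 49548 genes, and all 10 were found, each once. Of these, 9 encode transcription factors or coactivators, while Rbpms2 encodes an RNA-binding protein, so the name "transcription factor" covers it only loosely. The levels came from 3′ mRNA sequencing of cancer-associated fibroblasts (CAFs) of C57/BL6 mice that carried Col6a1-Cre and the Rosa26-mTmG reporter and had developed colonic adenomas after azoxymethane and dextran sodium sulfate (AOM/DSS). Cre replaces membrane Tomato with GFP in this reporter, so GFP+ cells (Col6a1+ CAFs, 3 libraries) are those in which Col6a1-Cre had been active, and Tomato+ cells (Col6a1− CAFs, 3 libraries) are those in which it had not. Both groups came from tumours, carried the same alleles and were depleted of cells with CD45, EpCAM, CD31 or Ter119 before the sort, and each library came from the pooled tumours of several mice. All 6 libraries are titled WT, and their labels give no age. Col6a1-Cre is known to act in fibroblasts rich in PDGFRα and in perivascular cells of the intestine, and both sorted groups therefore hold more than 1 kind of cell.

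Serum response factor (SRF) binds a DNA element called the CArG box and switches on either contractile genes or immediate early genes, depending on its partner. Myocardin is its smooth muscle and heart coactivator, the myocardin-related factors (here under their older symbols Mkl1 and Mkl2) link it to actin, and the ELK proteins are its partners at immediate early targets. MEF2 and NFAT proteins read calcium signals, through class II histone deacetylases that hold MEF2 silent and through calcineurin, which sends NFAT to the nucleus. EBF1 and EBF2 are helix-loop-helix factors best known from B cells and fat and also expressed by mural cells, NKX2-3 is a homeobox factor of gut and spleen mesenchyme, and RBPMS2 is a regulator of visceral smooth muscle precursors in the gut.

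Values are normalized counts, that is, reads per gene divided by the authors' size factor of the library. The normalized counts summed to between 3039152 and 3425249 a library, and between 14530 genes (Col6a1+ replicate 1) and 20511 genes were detected. A level of 0 allows up to 3 counts in that library, a limit that covers counting error only. Log2 fold changes are differences of mean log2 (normalized count + 1), Col6a1+ minus Col6a1− CAFs, which understates the change of genes with few counts. limma was run on all 26402 genes that had 1 normalized count or more in total, p-values were adjusted by Benjamini-Hochberg, and an adjusted p under 0.05 is a call here.

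After a sort without EpCAM+ cells, the 6 epithelial markers still summed to between 4208 and 4771 normalized counts in Col6a1+ libraries and between 17140 and 24426 in Col6a1− libraries, and 5 of the 6 were called lower in Col6a1+ CAFs. The 6 fibroblast markers summed to between 37468 and 41177 against 6799 to 13785, with 4 called higher in Col6a1+ CAFs. All 7 pericyte markers were called higher in Col6a1+ CAFs, with sums of 90948, 41437 and 46846 in replicates 1 to 3 and between 1147 and 2141 in Col6a1− libraries. Most of the excess of replicate 1 lay in Mcam, at 38662 normalized counts there and 5341 and 6072 in the other Col6a1+ libraries. The 5 visceral smooth muscle markers summed to between 2178 and 3202 against 90 to 418, the 6 endothelial markers to between 72 and 166 against 128 to 299, the 5 macrophage markers to between 0 and 29 against 43 to 73, the 4 glial markers to between 50 and 73 against 19 to 52, the 3 markers of interstitial cells of Cajal to between 321 and 614 against 91 to 174, and the 5 erythroid markers to between 110 and 1713 against 281 to 482. Of the B cell markers Cd79b, Ms4a1 and Pax5 were at 0 in all 6 libraries and the list summed to at most 5, and of the adipocyte markers Adipoq was at 0 throughout and the list summed to between 4 and 43 against 1 to 11. The part of these marker differences in the values of the 10 genes was not tested, and in these bulk libraries fewer cells of a type and less RNA per cell cannot be told apart.

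Of the 10 genes, 6 were called higher in Col6a1+ CAFs (Ebf1, Ebf2, Mef2c, Rbpms2, Nkx2-3 and Nfatc4), none was called lower (none at an unadjusted p under 0.05 or with limma-voom either), and Mef2d, Mef2a, Myocd and Srf did not pass. Among all genes tested, 2.66% were called higher and 1.96% lower. That background holds many genes with few counts. In a fit to the 13515 genes averaging 10 normalized counts or more, 815 genes were called higher, and the median log2 fold change was -0.15. Of the 10 genes, 9 were in that fit and 6 were called higher. All 10 log2 fold changes were above 0, with a median of 1.90 against -0.27 over all genes. The groups did not overlap for 7 of the 10, the 6 called genes and Mef2d, while 7.91% of all genes were higher in Col6a1+ CAFs without overlap. At an unadjusted p under 0.05 with a log2 fold change over 1, 8 of the 10 were higher, against 6.09% of all genes. Mef2c and Rbpms2 belong to mural genes that the study picked out on the same libraries, so their direction is not independent evidence. All 10 genes were chosen with earlier results of these data known. The comparison of their counts with all genes is therefore a description and no test of the set.

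The calls depended on the fit. The replicate number was also entered as a block, as if same-numbered libraries were pairs, which the labels do not state. With it none of the 26402 genes passed (limma, smallest adjusted p of 0.0612). Even so, 1851 genes, 8 of the 10 among them, were higher at an unadjusted p under 0.05. When that block was fitted to the 13515 genes averaging 10 normalized counts or more, 7 of the 10 were called higher, the former 6 and Mef2a, against 7.26% of those genes. When 1 library was left out, none of the 10 passed without Col6a1+ replicate 1, 2 or 3 or without Col6a1− replicate 1, Ebf1 and Mef2c passed without Col6a1− replicate 2, and Mef2c passed without Col6a1− replicate 3. Between 6 and 8 of the 10 were higher at an unadjusted p under 0.05 in each of these fits (limma). Over all genes, 1460 to 2434 of 26402 were, and 1742 of 13515 with the block over genes averaging 10 or more. A scaling to equal sums of the fibroblast markers, chosen after seeing the data, moved the all-gene median of the log2 fold changes by -1.20, to -1.47. Under it Ebf1 alone of the 10 was called higher and Srf was called lower, against 182 genes called higher and 8583 lower of all 26402. The signs of Nfatc4, Mef2a, Mef2d and Myocd turned as well. Because of the added 1, genes with few counts move less in such a scaling than genes with many, and so did the all-gene median. A place relative to that median therefore depends on the level of a gene. By that measure 9 of the 10 lay above the median and only Srf below, which shows no change of Srf against other genes.

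**Figure D1:**
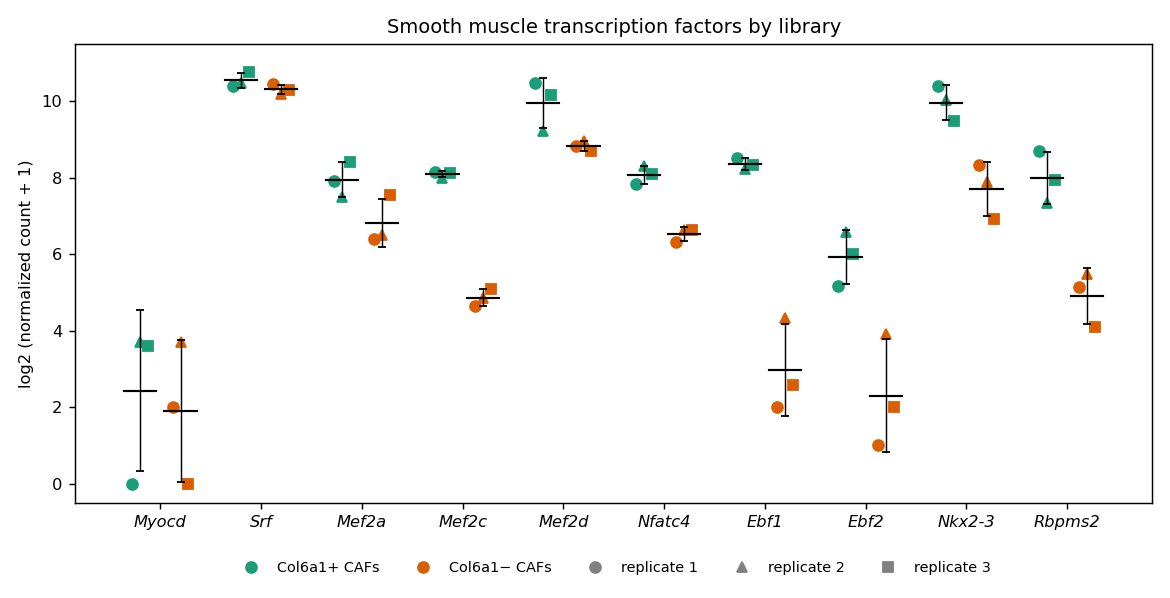
Level of each gene in each library, as log2 (normalized count + 1) on the vertical axis. Green symbols are the 3 Col6a1+ CAF libraries, orange symbols the 3 Col6a1− CAF libraries, shapes mark the replicate number, and bars give the mean with its SD (n = 3). The groups stand apart for Mef2c, Mef2d, Nfatc4, Ebf1, Ebf2, Nkx2-3 and Rbpms2 and overlap for Myocd, Srf and Mef2a.

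**Figure D2:**
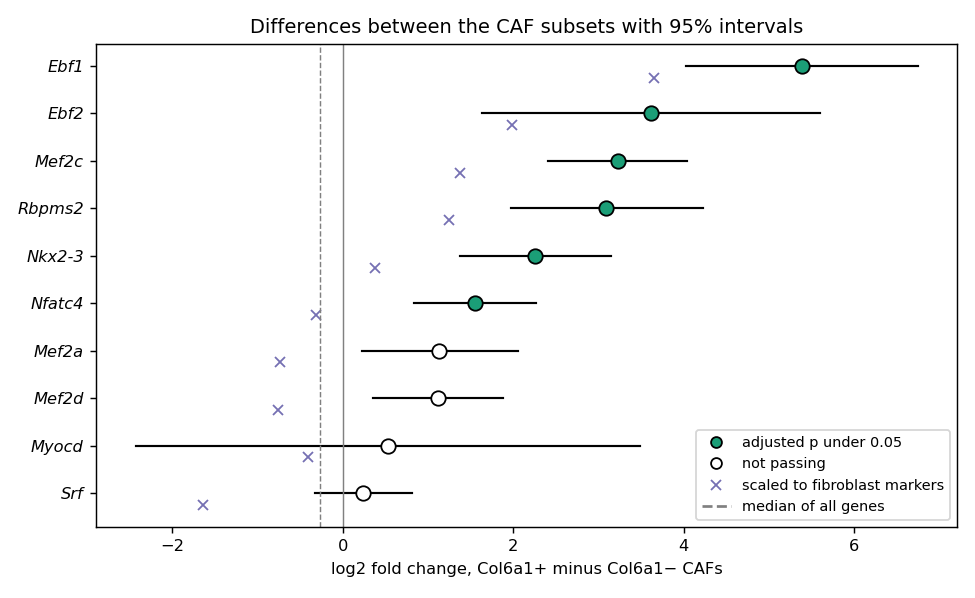
Log2 fold change of each gene (Col6a1+ minus Col6a1− CAFs, horizontal axis) with its 95% limma interval. Filled circles passed an adjusted p under 0.05, the dashed line is the median of all genes (-0.27), and crosses give the value after scaling to the fibroblast markers, which shifted all genes and placed Nfatc4, Mef2a, Mef2d, Myocd and Srf below 0.

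Neither myocardin nor its DNA-binding partner passed the test, and their groups overlapped. Myocd (ENSMUSG00000020542, chr11:65176561-65269989 of mm10, minus strand) had 0, 12 and 11 normalized counts in Col6a1+ replicates 1 to 3 and 3, 12 and 0 in Col6a1− replicates 1 to 3. It was thus close to the limit of detection in both groups, with means of 7.67 ± 6.66 and 5.0 ± 6.24 (SD, n = 3). Its log2 fold change was 0.53 (95% interval -2.43 to 3.49, limma adjusted p = 0.844) and ran from -0.42 to 1.74 when a library was left out, so no difference of Myocd was detectable at this depth.

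Srf (ENSMUSG00000015605, chr17:46546839-46556162, minus strand) was read at 1340, 1423 and 1755 normalized counts in Col6a1+ CAFs and at 1391, 1171 and 1253 in Col6a1− CAFs. The groups overlapped, with means of 1506 ± 220 and 1272 ± 111 (SD, n = 3), and the log2 fold change was 0.24 (SE 0.26, 95% interval -0.33 to 0.81, adjusted p = 0.642). Leaving out any library kept it between 0.12 and 0.32. Relative to the fibroblast markers the log2 fold change was -1.64 (limma adjusted p = 0.0131), in a scaling that called 8583 of all 26402 genes lower. The value is -0.17 relative to the all-gene median of that scaling, which moved less than genes with many counts because of the added 1.

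The ratio of Myocd to Srf within a library, each taken as normalized count + 1, was -10.39, -6.78 and -7.19 on the log2 scale in Col6a1+ CAFs and -8.44, -6.49 and -10.29 in Col6a1− CAFs. In the 2 libraries where Myocd was at 0, Col6a1+ replicate 1 and Col6a1− replicate 3, the value is only the added 1 over the level of Srf and no measured ratio. The groups overlapped, and the mean difference was 0.29 (two-sided exact permutation test, p = 1.00), to which those 2 values contribute.

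Promoter sequences were read for 8 of the 10 genes in 11 windows (250 bases before to 50 after the start, RefSeq on GRCm38.p6), and Myocd and Ebf2 had no entry. Both strands were searched for the CArG box as CCWWWWWWGG (W for A or T), for the MEF2 site and for an EBF site of the letters TCCCNNGGGA. Only exact matches were taken, so sites that depart from these letters or lie outside the windows would be missed. Among the 10 genes the CArG box occurred in Srf alone, where 2 boxes lay at -82 to -73 and -62 to -53 from the start, against 1.63% of all 32851 windows. The MEF2 site occurred in Mef2a alone, at -2 to 8, against 3.19% of windows, and the EBF site in none, against 0.904%. In the list of smooth muscle targets of SRF, 13 of 16 genes had a window, and 2 of 13 windows held a CArG box, those of Myl9 and Vcl. The absence of a match elsewhere does not show that a gene lacks such a box. It was also in 4 of 9 windows of the immediate early targets, all 4 of Egr2 (log2 fold change -1.25, not passing). Some of these windows overlap and hold the same box, so the count is 1 of 5 genes. Among the SRF cofactors it was in 2 of 31 windows, both of Fhl2 (0.80, not passing). It was in 1 of 10 windows of the paralogues, Ebf3, and in none of 12 of the calcineurin and kinase inputs. The 3 stretches are shown because they hold the element that SRF reads, in Srf itself, which did not pass the test, and in 2 genes of contraction or adhesion, which did. Capitals mark the boxes, and a match is a description of the letters, not a bound site. They lie at chr17:46556203-46556282 (minus strand), chr2:156775264-156775343 (plus strand) and chr14:20929148-20929227 (plus strand).
Srf: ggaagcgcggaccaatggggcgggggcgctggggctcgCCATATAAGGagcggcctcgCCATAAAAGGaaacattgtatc
Myl9: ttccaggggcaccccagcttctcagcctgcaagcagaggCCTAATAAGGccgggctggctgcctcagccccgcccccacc
Vcl: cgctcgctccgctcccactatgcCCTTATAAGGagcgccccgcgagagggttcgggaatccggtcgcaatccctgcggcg

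The smooth muscle targets of SRF and myocardin were higher in Col6a1+ CAFs although neither factor passed: 13 of 16 were called higher and none lower, all 16 log2 fold changes were above 0, and their median was 2.87. Among them were Des (intermediate filament desmin, 4.37, SE 0.43), Kcnmb1 (potassium channel subunit, 4.13, SE 0.82), Acta2 (smooth muscle actin, 3.88, SE 0.55), Myh11 (smooth muscle myosin heavy chain, 3.65, SE 0.57) and Tagln (transgelin, 3.49, SE 0.54), and further Synpo2 (3.43), Tpm2 (3.35) and Lmod1 (2.88). Myl9, the myosin light chain whose promoter is shown above, had a log2 fold change of 2.87 (SE 0.58) and Vcl, vinculin of cell adhesions, one of 2.10 (SE 0.29). Cnn1 (calponin), Smtn and Flna did not pass, at 0.17, 1.62 and 1.32. None of the 16 passed with the replicate block, where 15 were higher at an unadjusted p under 0.05, and 15 of 16 passed with that block over genes averaging 10 or more. The immediate early targets, the other output of SRF, held no call in either direction (limma; Fosb alone was higher at an unadjusted p, and it was called higher with limma-voom and with the block over genes averaging 10 or more): 5 of 8 were above 0, with a median of 0.51, and Fosb came nearest at 1.45 (adjusted p = 0.0550). The median over all genes was -0.27. Relative to the fibroblast markers, 12 of the 13 called targets stayed above 0 and Tpm1 turned to -0.16, while all 8 immediate early genes were below 0. The median over all genes, which moved less than genes with many counts because of the added 1, was -1.47 in that scaling. The immediate early genes lay on both sides of it, from -3.10 (Egr2) to -0.42 (Fosb).

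Of 24 cofactors and antagonists of SRF, 4 were called higher and none lower (limma; Gata5 was lower at an unadjusted p, and limma-voom called 3 higher, without Wwtr1, and Gata5 lower), with 16 above 0 and a median of 0.51. Prrx1, a homeobox factor of mesenchyme that can bind together with SRF, had 182, 106 and 148 normalized counts in Col6a1+ CAFs against 4, 3 and 0 (log2 fold change 5.72, SE 0.80, adjusted p = 0.00341, with the block 0.0629). Hdac5, a class II histone deacetylase that represses MEF2 proteins, followed at 1.42 (SE 0.32, adjusted p = 0.0332), with Wwtr1, a coactivator of TEAD factors, at 1.33 (SE 0.32, adjusted p = 0.0454) and Csrp1, a LIM protein of the actin cytoskeleton, at 1.32 (SE 0.30, adjusted p = 0.0344). Of these 4, none passed with the block and all 4 passed with the block over genes averaging 10 or more, where Klf5 was called lower among the 21 tested. Relative to the fibroblast markers Hdac5, Wwtr1 and Csrp1 turned to between -0.55 and -0.45. They lay above the all-gene median of -1.47 in that scaling, which moved less than genes with many counts. The myocardin-related factors did not pass, with 0.37 for Mkl1 and 0.90 for Mkl2, nor, outside that block fit, did Klf4 (-1.16) and Klf5 (-3.24), whose libraries overlapped.

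Of the 3 MEF2 genes, which encode factors with the same kind of DNA-binding domain, Mef2c was called and Mef2d and Mef2a were not. Mef2c (ENSMUSG00000005583, chr13:83504034-83667080, plus strand) was read at 281, 255 and 280 normalized counts in Col6a1+ CAFs and at 24, 28 and 33 in Col6a1− CAFs. Its lowest Col6a1+ library exceeded its highest Col6a1− library 7.73-fold, and both groups were tight, with means of 272 ± 14.7 and 28.3 ± 4.51 (SD, n = 3). The log2 fold change was 3.23 (SE 0.37, 95% interval 2.41 to 4.04, limma adjusted p = 0.00158, with the block 0.0612), a 9.60-fold difference of means, and stayed between 3.12 and 3.34 when any library was left out. Relative to the fibroblast markers it was 1.38 (adjusted p = 0.0655).

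Mef2d (ENSMUSG00000001419, chr3:88142372-88172086, plus strand) was at 1425, 598 and 1142 normalized counts against 457, 501 and 416. The Col6a1− libraries lay close together (458 ± 42.5) while the Col6a1+ libraries were spread (1055 ± 420, SD, n = 3), with replicate 2 only a little above the highest Col6a1− library. The log2 fold change of 1.12 (SE 0.34, 95% interval 0.35 to 1.88) had an unadjusted p of 0.00839 and did not pass adjustment (limma adjusted p = 0.107, with the block 0.211).

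Mef2a (ENSMUSG00000030557, chr7:67231163-67372858, minus strand) was at 240, 180 and 341 normalized counts against 83, 90 and 185. In both groups replicate 3 was the highest, and Col6a1− replicate 3 lay above Col6a1+ replicate 2, so the groups overlapped (254 ± 81.4 and 119 ± 57.0, SD, n = 3). Its log2 fold change of 1.13 (SE 0.41, 95% interval 0.22 to 2.05) did not pass (limma adjusted p = 0.184, with the block 0.142) except with the block over genes averaging 10 or more (0.0464).

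Ratios within a library, each gene as normalized count + 1, set the MEF2 genes against each other with little effect of the size factors at these counts. The log2 ratio of Mef2c to Mef2a was 0.23, 0.50 and -0.28 in Col6a1+ CAFs and -1.75, -1.65 and -2.45 in Col6a1− CAFs. The ratio of Mef2c to Mef2d was -2.34, -1.23 and -2.02 against -4.20, -4.11 and -3.62. Both differed without overlap, by 2.10 and 2.11 on average. With 3 libraries a group the exact permutation test cannot go below p = 0.10, the value both reached (two-sided, 0.167 adjusted over the 5 pairs tested). The ratio of Mef2a to Mef2d, at -2.01 ± 0.48 and -2.03 ± 0.75 (SD, n = 3), differed by 0.01 (exact permutation test, p = 1.00).

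**Figure D3:**
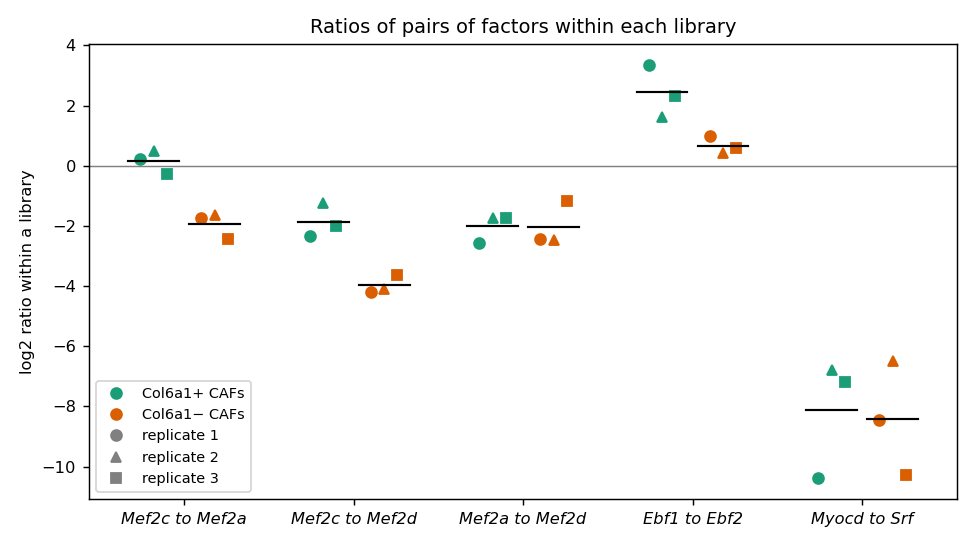
Log2 ratio of 2 genes within each library (vertical axis) for the 5 pairs compared, with green symbols for Col6a1+ CAFs, orange for Col6a1− CAFs, shapes for the replicate number and bars for the group mean. The groups stand apart for Mef2c to Mef2a, Mef2c to Mef2d and Ebf1 to Ebf2, the last with few counts of both genes in Col6a1− CAFs. They overlap for Mef2a to Mef2d and Myocd to Srf, where Myocd was at 0 in the lowest library of each group. Ratios compare the groups and not the amounts of the 2 transcripts.

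Nfatc4 (ENSMUSG00000023411, chr14:55824795-55833943, plus strand), the NFAT member tied to vascular smooth muscle, was read at 228, 317 and 273 normalized counts in Col6a1+ CAFs and at 79, 99 and 98 in Col6a1− CAFs. Every Col6a1+ library was above every Col6a1− library (273 ± 44.5 and 92.0 ± 11.3, SD, n = 3). The log2 fold change was 1.55 (SE 0.33, 95% interval 0.83 to 2.27, limma adjusted p = 0.0241, with the block 0.0770; 1.44 to 1.67 with a library left out) under the authors' size factors and -0.31 (adjusted p = 0.629) relative to the fibroblast markers. The other NFAT genes did not pass: Nfatc1 was at 0.93, Nfatc2 at -1.16, Nfatc3 at 0.08 and Nfat5 at -0.51. Of 10 calcineurin subunits, calcineurin regulators and kinases upstream of NFAT and MEF2, none was called in either direction (limma, none at an unadjusted p without the block or with limma-voom either, and Rcan1 alone at an unadjusted p with the block), 7 were above 0, and the median was 0.41. Rcan1, itself a calcineurin inhibitor, had the highest value of these (1.14, SE 0.56, adjusted p = 0.353), where Col6a1+ replicate 1 had 281 normalized counts and the other libraries 38 to 85.

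Ebf1 (ENSMUSG00000057098, chr11:44617317-45008091, plus strand) had the highest log2 fold change of the 10. It was at 368, 297 and 321 normalized counts in Col6a1+ CAFs and at 3, 19 and 5 in Col6a1− CAFs. The lowest Col6a1+ library exceeded the highest Col6a1− library 15.6-fold, and the means of 329 ± 36.1 and 9.0 ± 8.72 (SD, n = 3) differed 36.5-fold. The log2 fold change was 5.39 (SE 0.61, 95% interval 4.03 to 6.75, limma adjusted p = 0.00158, with the block 0.0612), and it stayed between 4.91 and 6.07 when any library was left out. It was 3.65 relative to the fibroblast markers (adjusted p = 0.00167). The B cell markers were at or near 0 in every library.

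Ebf2 (ENSMUSG00000022053, chr14:67233292-67430918, plus strand) was also higher in every Col6a1+ library than in any Col6a1− library, at lower counts, with 35, 95 and 63 against 1, 14 and 3. In Col6a1− CAFs it was highest in replicate 2, as was Ebf1, and the Col6a1+ libraries were more spread than for Ebf1 (64.3 ± 30.0 and 6.0 ± 7.00, SD, n = 3). Its log2 fold change of 3.62 (SE 0.90, 95% interval 1.63 to 5.60) was only just past the threshold (limma adjusted p = 0.0482, with the block 0.0900) and ran from 2.96 to 4.42 when a library was left out. The call was lost with a pseudocount of 0.1 (adjusted p = 0.0744) or 5 (adjusted p = 0.0504).

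The log2 ratio of Ebf1 to Ebf2 was 3.36, 1.63 and 2.33 in Col6a1+ libraries and 1.00, 0.42 and 0.58 in Col6a1− libraries, without overlap. In Col6a1− replicates 1 and 3, Ebf1 had 3 and 5 normalized counts and Ebf2 had 1 and 3. The ratios there rest on few counts and partly on the added 1. The difference of 1.77 had the smallest p that the exact permutation test allows (two-sided, p = 0.10, 0.167 adjusted over 5 pairs). The related gene Ebf4 had 38, 4 and 12 normalized counts against 0, 1 and 3 (log2 fold change 2.77, SE 1.10, adjusted p = 0.232), and Ebf3 had at most 7 in any library (-1.23, adjusted p = 0.618).

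Nkx2-3 (ENSMUSG00000044220, chr19:43612325-43615892, plus strand), which is needed for the mesenchyme of gut and spleen, was at 1340, 1043 and 715 normalized counts in Col6a1+ CAFs and at 319, 235 and 121 in Col6a1− CAFs. Replicate 1 was the highest and replicate 3 the lowest in both groups, and the groups did not overlap (1033 ± 313 and 225 ± 99.4, SD, n = 3). The log2 fold change was 2.26 (SE 0.40, 95% interval 1.37 to 3.14, limma adjusted p = 0.0109, with the block 0.0612; 1.86 to 2.56 with a library left out), and 0.38 relative to the fibroblast markers (adjusted p = 0.498). Of the related homeobox genes, Nkx2-5 and Nkx2-6 were at 0 in all libraries, and Nkx3-2 had a single normalized count in 1 library.

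Rbpms2 (ENSMUSG00000032387, chr9:65629648-65660528, plus strand) was at 417, 160 and 246 normalized counts against 34, 44 and 16. The groups did not overlap, although replicate 1 stood well above the other Col6a1+ libraries (274 ± 131 and 31.3 ± 14.2, SD, n = 3). Its log2 fold change was 3.09 (SE 0.51, 95% interval 1.97 to 4.22, limma adjusted p = 0.00760, with the block 0.0845; 2.68 to 3.42 with a library left out), and 1.25 relative to the fibroblast markers (adjusted p = 0.0941). Its paralogue Rbpms was at 816, 385 and 373 against 313, 143 and 152 (1.36, SE 0.42), which did not pass (adjusted p = 0.106). Over all 12 paralogues of the factors, 10 could be tested, 5 were above 0 with a median of -0.12, and none was called in either direction (limma; Ebf4 and Rbpms were higher at an unadjusted p, and limma-voom called none). With the block over genes averaging 10 or more, Rbpms was called higher among the 5 paralogues that could be tested.

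**Figure D4:**
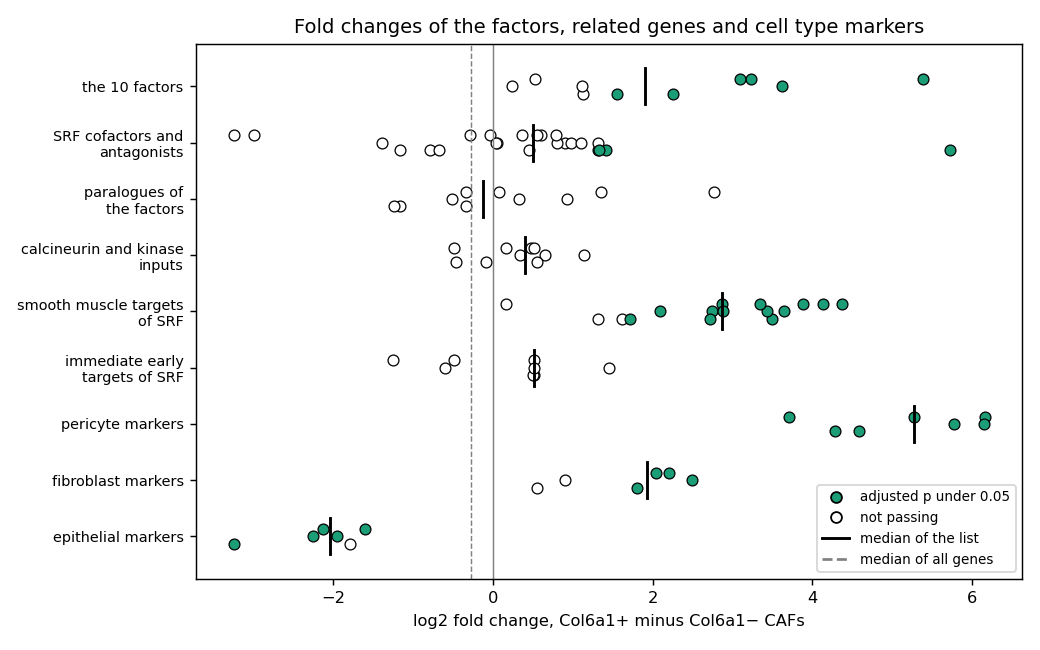
Log2 fold changes (Col6a1+ minus Col6a1− CAFs, horizontal axis) of the 10 factors, the 5 lists of related genes and 3 marker lists. Each circle is a gene, with values under the authors' size factors, filled where the adjusted p was under 0.05, bars are list medians and the dashed line is the median of all genes; the smooth muscle targets (median 2.87, 13 of 16 filled) lie to the right of the immediate early targets (median 0.51, none filled), and the epithelial markers lie below 0.

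Within the Col6a1+ group the 10 genes did not share 1 order of libraries. Mef2d, Rbpms2, Nkx2-3, Ebf1 and, by a single count, Mef2c were highest in replicate 1, where the pericyte marker sum was also highest and the fewest genes were detected. Nfatc4 and Ebf2 were lowest there and highest in replicate 2, and Myocd was at 0 there, while Srf and Mef2a were highest in replicate 3. Without Col6a1+ replicate 1 the log2 fold changes were 0.85 for Mef2d, 2.74 for Rbpms2, 2.04 for Nkx2-3, 1.67 for Nfatc4 and 3.99 for Ebf2. Of the called genes, Mef2c and Ebf1 varied least among the Col6a1+ libraries for their level (SD of 14.7 and 36.1 normalized counts on means of 272 and 329).

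The genes nearest to each factor were found among the 13515 genes that average 10 normalized counts or more, as those with the smallest root mean square difference of centred log2 values over the 6 libraries, which leaves out Myocd. Nearest to Mef2c were Tgfb2 (0.19), Adamts1 (0.20) and Cacna2d1 (0.26), and Adamts1, a secreted metalloproteinase, had 1227, 1221 and 1226 normalized counts against 154, 155 and 141. Nearest to Ebf1 were S1pr3 (0.25), Pou2f2 (0.32) and Hoxb2 (0.43), of which S1pr3, a sphingosine phosphate receptor, had 68, 48 and 65 against 0, 4 and 0. Nearest to Ebf2 were Cpeb1 (0.31), Cd248 (0.35) and Lamc3 (0.35). Cd248 encodes endosialin, a pericyte and fibroblast surface protein, and was at 127, 397 and 487 against 11, 73 and 19. For Nkx2-3 they were Rassf8 (0.17), Lhfp (0.18) and Ston1 (0.18), and for Rbpms2 they were Zak (0.21), Loxl3 (0.22) and Col18a1 (0.23). For Nfatc4 they were Nr3c1 (0.12), the glucocorticoid receptor, Pde5a (0.12), the cGMP phosphodiesterase of vascular smooth muscle, at 234, 287 and 226 against 82, 89 and 84, and Dnajb4 (0.13). Srf lay nearest to Fbxo5 (0.06), Fubp3 (0.07) and Pcna (0.07), Mef2a to Snx13 (0.18), Hspa13 (0.19) and Kmt2e (0.19), and Mef2d to Kif3c (0.11), Xpnpep3 (0.11) and Aebp2 (0.14). All of these points share the same 6 libraries and their size factors, so the likeness is a description.

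Some of the 10 genes overlap other annotated genes, whose reads could be mixed with theirs because the strand setting of the counting is not given in the sources used here. Lysmd4 lies on the opposite strand at Mef2a with 19, 31 and 23 normalized counts against 3, 19 and 20, and Gm44667 lies on its strand with at most 9 in a library. Mir6976 within Srf had at most 4, the antisense 1700113A16Rik at Mef2d had 13 in Col6a1− replicate 1 and at most 1 elsewhere, and Gm10860 at Ebf2 had 3 over all libraries. The other overlapping genes, among them Gm26904 at Srf, Gm44668 at Mef2a and Gm12158 at Ebf1, were at 0.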

How the data were processed

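RNA of sorted CAFs (RNA integrity above 7) was made into QuantSeq 3′ libraries and sequenced on an Ion Proton. The authors mapped reads with TopHat2 and the remaining reads with Bowtie2 to mm10, counted them per gene with GenomicRanges and normalized them with DESeq through metaseqR. The deposited values are log2 (normalized count + 1), and 100.0% are whole normalized counts (tolerance 1e-06). Another 6 per-sample columns, and the authors' fold changes, p-values and false discovery rates, were not used.

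Groups and replicate numbers came from the labels. The labels do not tie a library to an animal, so p-values measure the spread between these libraries. limma 3.58.1 (R 4.3.3; lmFit and eBayes with a trend, two-sided, degrees of freedom 6.48 prior and 4 residual) was fitted to genes with at least 1 normalized count in total, after tests on simulated data. Ratios within a library were compared with exact permutation tests (SciPy 1.17.1), and plots were drawn with Matplotlib 3.10.9. Same-numbered libraries of the 2 groups deviated weakly together from the group means (r = 0.245, 0.125 and 0.144 over 13515 genes). Other pairs ran from -0.245 to 0.15, so these values do not settle whether replicate numbers mark pairs. The main fit and the permutation tests were unpaired, and the replicate number was a block in alternative fits only.

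The 10 genes and all gene lists were chosen with earlier results of these data known. Named were the 10 genes, up to 8 called genes a list by size of change with genes that a statement turns on, the 3 genes nearest to each factor, and genes overlapping a factor; Smtn, Flna, Cnn1, Klf4, Klf5, Fosb, Rcan1, Gata5, Egr2, Fhl2, Mkl1, Mkl2, Tpm1, Vcl, Myl9 and the paralogues, of which 1 is not reported here, were added to these after their values were seen. Alternatives were other filters (a mean of at least 10, at least 10 in every library, at least 6 in total), pseudocounts of 0.1 and 5, library size alone, median centring, limma-voom, array quality weights, the replicate block, leaving out each library, an unadjusted criterion and, chosen after seeing the data, scaling to fibroblast markers. Promoter sequences are from RefSeq.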

Additional observations from a re-analysis of the deposited data

How the results depend on the processing

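All 10 log2 fold changes stayed above 0 under every filter, pseudocount, model and scaling tried, except the scaling to fibroblast markers, chosen after seeing the data, which gave -0.41 for Myocd, -1.64 for Srf, -0.74 for Mef2a, -0.76 for Mef2d and -0.31 for Nfatc4, and except Myocd when 1 library was left out (-0.11 without Col6a1+ replicate 2, -0.05 without Col6a1+ replicate 3 and -0.42 without Col6a1− replicate 3, to a highest 1.74). Of the 10 factors, 4 to 8 were called higher under the other settings. The count was 0 with the replicate block (8 at an unadjusted p), 1 with fibroblast scaling, which also called 1 lower, and 0 to 2 when 1 library was left out: 0 without any Col6a1+ library or Col6a1− replicate 1, 2 without Col6a1− replicate 2 (Ebf1 and Mef2c, limma adjusted p = 0.0462 each) and 1 without Col6a1− replicate 3 (Mef2c, 0.0367). Over all genes, 703 were called higher and 517 lower. The replicate block gave 0 and 0 (1851 and 2567 unadjusted), and leaving out a library gave 0 to 98 higher and 0 to 166 lower (between 1460 and 2434 higher and 1968 and 2639 lower unadjusted). Fibroblast scaling gave 182 higher and 8583 lower, and the unadjusted criterion 1607 and 2273. The count of lower genes alone moved to 336 with a pseudocount of 0.1, 1006 with limma-voom, 969 with array quality weights and 871 with the block over genes with a mean of at least 10. The differences in log2 ratio between groups kept their sign for Mef2c to Mef2a, Mef2c to Mef2d and Ebf1 to Ebf2. For Mef2a to Mef2d they ran from -0.20 to 0.44 when 1 library was left out (-0.13 and -0.12 without Col6a1+ replicates 2 and 3, -0.20 without Col6a1− replicate 1 or 2), and for Myocd to Srf from -0.65 to 1.43 (-0.38 and -0.17 without Col6a1+ replicates 2 and 3, -0.65 without Col6a1− replicate 3). The cause of these changes was not tested. At a minimum of 10 in every library Ebf1, Ebf2 and Myocd have no value, and at a mean of 10 Myocd has none. The few counts of Myocd, and of Ebf1 and Ebf2 in Col6a1− CAFs, limit what can be said of their fold changes and ratios.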
